A study of Mus musculus with 2 samples.

Results

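The respiratory chain was described across cell types in single-cell RNA sequencing of mouse cortex. Its genes were taken by symbol: names starting with mt-, with Nduf followed by a, b, c, s or v, with Uqcr, with Cox4 to Cox8 or with Atp5, together with Sdha to Sdhd and Cycs. This selected 108 of the 32285 genes in the tables. Of these, 13 are encoded by mitochondrial DNA and 95 by the nucleus. The nuclear genes are 39 subunits of complex I, 4 of complex II, 8 of complex III, 18 of complex IV and 17 of complex V, which gives 86 nuclear subunits, plus 8 complex I assembly factors (Ndufaf1 to Ndufaf8) and Cycs. The symbol rule does not take Cyc1, and the tables hold no mitochondrial ribosomal or transfer RNAs. Ndufa4 is counted with complex I by its symbol, although its protein is known to work in complex IV. Its paralog Ndufa4l2 is counted with complex I, and Cox7a2l with the complex IV subunits, also by symbol alone.

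The study compared cortical tissue of Fam69c wildtype and Fam69c knockout mice. Per the labels, cortices of male mice aged 4 months were pooled by genotype, and 7 mice are named without saying whether that number holds for each pool. The tissue was dissociated to single cells, stained with 7-AAD, a dye that enters dead cells, and sorted. Each genotype gave 1 library made with the 10x Genomics 3′ kit, so genotype, pool and library cannot be told apart, and no test between genotypes was possible. The sources used here do not give the knockout allele, the strain or whether the controls were littermates.

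The respiratory chain sits in the inner mitochondrial membrane. Complex I oxidises NADH and complex II oxidises succinate, both pass electrons to coenzyme Q, complex III passes them on to cytochrome c (Cycs), and complex IV passes them to oxygen. Complexes I, III and IV pump protons, and complex V, the ATP synthase, uses the proton gradient to make ATP. Mitochondrial DNA encodes core subunits of every complex except complex II, and the remaining subunits are made in the cytosol and imported, so most complexes are assembled from the products of both genomes.

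There were 7150 barcodes with 57166105 UMIs (unique molecular identifiers, which stand for counted RNA molecules) in the wildtype library and 9182 barcodes with 75473717 UMIs in the knockout library. Cells were used if they had 500 genes or more and no more than 20% of their UMIs on mitochondrial genes, and this left 5152 wildtype and 7480 knockout cells with a median of 8432 and 8685 UMIs. The mitochondrial limit removed 8.88% of wildtype and 10.7% of knockout barcodes, and 17 barcodes occurred in both libraries. Cells were assigned to a class when at least 3 of its 6 markers, and of no other class, were detected, and a class is called astrocyte-like and so on for that reason. Markers of at least 2 classes were found in 14.2% of wildtype and 9.91% of knockout cells, which were left out. Neurons, the defining cells of the cortex, were nearly absent: the neuron gate took 2 wildtype cells and 1 knockout cell. The gene Fam69c is listed under its newer symbol Dipk1c. It was still detected in the knockout library, at 58.4 CPM (UMIs of the gene per 1000000 UMIs of the class) in wildtype and 33.2 CPM in knockout astrocyte-like cells, from 1404 and 1237 UMIs. Whether the 3′ reads lie outside the deleted part is not known here, so this value does not check the label.

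The 5 classes that reached 100 cells in both libraries were compared. Astrocyte-like cells numbered 2376 in the wildtype and 4243 in the knockout library, oligodendrocyte-like cells 685 and 751, microglia-like cells 257 and 298, endothelial-like cells 173 and 256, and neuroblast-like cells 227 and 411. Neutrophil-like, monocyte-like, T cell-like and B cell-like cells, with 37 to 97 cells a library, were described only. Pericyte-like cells (26 and 58) and fibroblast-like cells (29 and 77) were included once their cell numbers were known. Each UMI stands for 1 counted RNA molecule, so levels were not divided by transcript length. All intervals below are exact 95% Poisson or binomial intervals that cover counting error only, not the spread between animals.

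The summed level of the 86 nuclear subunits differed among classes and was higher in the knockout library in all 11 described classes. In the wildtype library it was 21970 CPM in neuroblast-like, 20510 CPM in astrocyte-like, 17360 CPM in oligodendrocyte-like and 15790 CPM in endothelial-like cells. Microglia-like cells had 8941 CPM and neutrophil-like cells 7887 CPM. In the knockout library the same classes had 26410, 26260, 19360, 18520, 11440 and 8299 CPM, in that order. Microglia-like and neutrophil-like cells were thus lowest in both libraries. With 1 library a genotype, the spread that would separate neighbours in this order is unknown. The neutrophil-like difference was within counting error (log2 ratio of knockout over wildtype 0.07, interval -0.02 to 0.16).

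The summed level of the 13 mitochondrially encoded genes followed another order. It was highest in fibroblast-like cells, at 69340 CPM in wildtype and 70640 CPM in knockout, and in pericyte-like cells, at 53100 and 57080 CPM. The fibroblast-like cells also held markers of other classes. Astrocyte markers summed to 2614 and 1816 CPM in them, beside 3798 and 3244 CPM of fibroblast markers. Of these cells, 26 of 29 in wildtype and 74 of 77 in knockout had 2 markers of another class. Astrocyte-like cells had 48390 and 47810 CPM, endothelial-like cells 47850 and 45680 CPM, and oligodendrocyte-like cells 47160 and 47110 CPM, close to each other. Neuroblast-like cells had 28810 and 33670 CPM, and microglia-like cells 16230 and 17170 CPM. Hence neuroblast-like cells combined a high nuclear sum with a low mitochondrial sum: they had 1.31 mitochondrial UMIs per nuclear-subunit UMI in the wildtype library. This ratio was 1.82 in microglia-like, 2.36 in astrocyte-like, 2.72 in oligodendrocyte-like and 3.03 in endothelial-like cells. In the knockout library it was 1.27, 1.50, 1.82, 2.43 and 2.47 in the same classes, lower in each. Monocyte-like cells, which were described only, shared this trait, with a ratio of 1.27 in wildtype and 1.11 in knockout. They had 18520 and 23100 CPM of nuclear subunits and 23570 and 25710 CPM of mitochondrial genes.

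**Figure D1:**
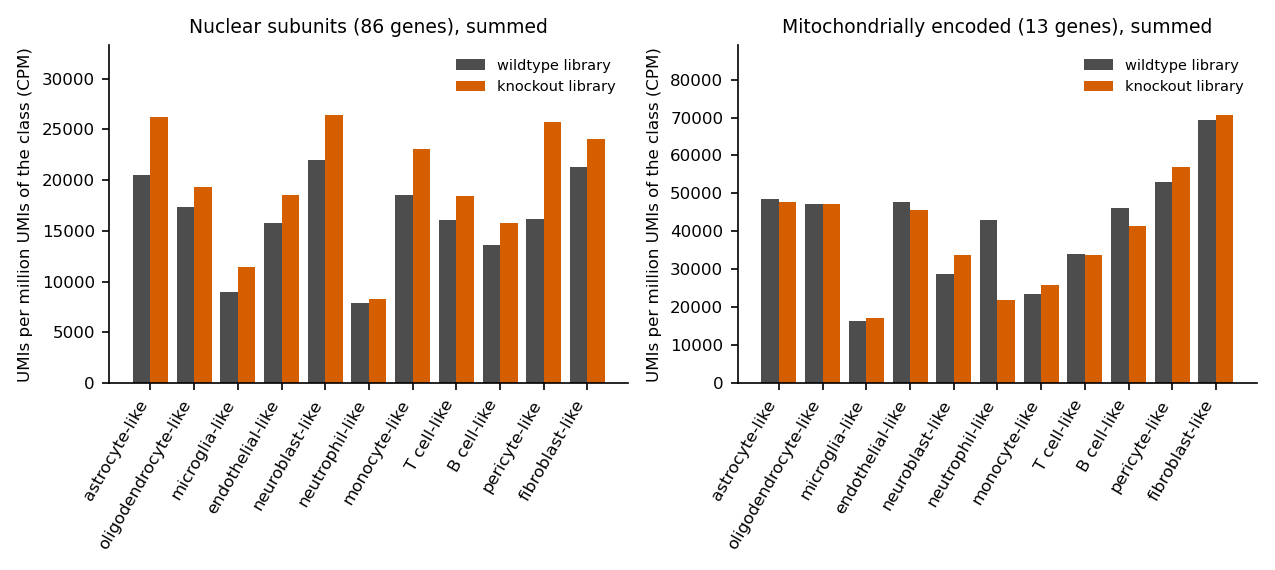
Summed nuclear subunits (left) and summed mitochondrially encoded genes (right) in CPM (y axes) by marker-gated class (x axis), 1 bar per library with no error bar. The nuclear sum is higher in the knockout library in every class drawn, while the mitochondrial sums of astrocyte-like (48390 and 47810 CPM) and oligodendrocyte-like cells (47160 and 47110 CPM) nearly coincide.

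In astrocyte-like cells the nuclear subunits were higher in the knockout library almost throughout, while the mitochondrially encoded genes summed to nearly the same level. Of 82 nuclear subunits with at least 50 UMIs, 80 had a higher and 2 a lower CPM in the knockout library. An upper limit of 25% higher was reached by 58 subunits, and the matching lower limit of 20% lower by 0, against 13.2% of all 13405 genes upward and 27.7% downward. The sum went from 20510 to 26260 CPM (log2 ratio 0.36, interval 0.35 to 0.36). The median over the nuclear subunits was 0.37, and the median over all genes was -0.11. Under trimmed-mean (TMM) scaling all 82 tested subunits were higher in the knockout library, and the median over all genes was 0.04.

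Other measures differed beside this result, and their part in it was not tested. The astrocyte-like cells of the 2 libraries fell differently over clusters made without the respiratory chain genes. Cluster 1 held 40.0% of wildtype and 19.0% of knockout cells, and cluster 0 held 10.7% and 45.2%. Both libraries were clustered together with no correction for library. A difference in kinds of cells thus cannot be told apart from a difference between libraries. When the clusters were given equal weights in both libraries, the log2 ratio of the nuclear sum was 0.17, less than the 0.36 of all cells. Astrocyte-like cells had a median of 10771 UMIs in wildtype and 8992 in knockout. The 80 ribosomal protein genes also had a higher sum in the knockout library, 22550 against 26320 CPM, with 73 of 77 tested genes higher. Hemoglobin genes, markers of red blood cells and of free RNA from them, summed to 11890 and 9940 CPM.

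Complex I oxidises NADH, and its 39 nuclear subunits had the largest summed log2 ratio of the 5 complexes in astrocyte-like cells, 0.41, with 37 of 38 tested higher and 32 past the limit of 25%. Ndufc2, an accessory subunit of the membrane arm, had 487.5 CPM in wildtype and 734.4 CPM in knockout, a log2 ratio of 0.59 (0.56 to 0.62). Ndufa4 had 425.5 and 579.1 CPM, and Ndufs5, an accessory subunit, 360.8 and 472.7 CPM. These 3 were the most abundant of the complex. By CPM, not every core subunit moved this way. Ndufs1, the large iron-sulfur subunit that takes electrons near the NADH site, had 89.2 CPM in wildtype and 83.0 CPM in knockout, a log2 ratio of -0.10 (-0.18 to -0.02). Under TMM scaling Ndufs1 was higher in the knockout library, as were all 82 tested nuclear subunits. Ndufv1, which binds NADH, had 63.7 and 80.1 CPM.

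The assembly factors build complex I and are not part of it, and their ratios were uneven. Ndufaf3 had 37.3 CPM in wildtype and 58.2 CPM in knockout, a log2 ratio of 0.64, and Ndufaf8 had 39.4 and 56.7 CPM, a log2 ratio of 0.53. Ndufaf5 with 11.0 and 10.8 CPM, Ndufaf6 with 18.6 and 18.1 CPM, and Ndufaf7 with 34.3 and 33.7 CPM were nearly level. They were slightly lower in the knockout library by CPM, with Ndufaf5 at -0.03 and Ndufaf7 at -0.02. TMM scaling raises every log2 ratio of this class by 0.15, more than any of these differences. By CPM, 5 of 8 were higher, 3 of them past the limit of 25%.

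Complex II, which also serves the citric acid cycle, had uneven ratios inside 1 enzyme. Sdha, its flavoprotein with the succinate site, had 152.4 CPM in wildtype and 147.1 CPM in knockout, a log2 ratio of -0.05. This small difference depends on the scaling: under TMM scaling Sdha was higher in the knockout library, as were all 82 tested nuclear subunits. Sdhb, the iron-sulfur subunit, had 191.1 and 249.5 CPM (0.38). The membrane anchors Sdhc, with 105.6 and 124.6 CPM (0.24), and Sdhd, with 76.6 and 98.0 CPM (0.36), were also higher in the knockout library.

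All 8 nuclear subunits of complex III were higher in the knockout library in astrocyte-like cells, 6 of them past the upper limit. The small subunits Uqcrh, Uqcr11 and Uqcr10 were the most abundant: Uqcrh had 399.4 CPM in wildtype and 518.9 CPM in knockout, Uqcr11 348.9 and 456.5 CPM, and Uqcr10 318.7 and 410.0 CPM. Uqcrfs1, the Rieske iron-sulfur protein, had 193.7 and 263.2 CPM, a log2 ratio of 0.44. Uqcrc1, a core protein without a redox centre, had a smaller log2 ratio of 0.20 (137.9 and 158.4 CPM). Cycs, the electron carrier between complexes III and IV, had 276.5 and 350.7 CPM (0.34).

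In complex IV, all 15 tested nuclear subunits were higher in the knockout library, 9 past the upper limit. Cox8a had 943.4 CPM in wildtype and 1258 CPM in knockout (0.41 on the log2 scale), and Cox4i1, a regulatory subunit that binds ATP, 591.3 and 801.2 CPM (0.44). Cox7c had 663.6 and 772.8 CPM, a log2 ratio of 0.22, and Cox6a1 269.2 and 289.7 CPM, 0.11. The widest ratios belonged to scarce genes. Cox7b2 had 2.33 and 4.35 CPM, a log2 ratio of 0.90 (0.45 to 1.36), and Cox4i2 had 4.75 and 8.05 CPM, a log2 ratio of 0.76 (0.45 to 1.09).

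All 17 nuclear subunits of complex V were higher in the knockout library, 9 past the upper limit. The catalytic head stood at the low end: Atp5b, the beta subunit that makes ATP, had 517.5 CPM in wildtype and 548.1 CPM in knockout, a log2 ratio of 0.08, and Atp5a1, the alpha subunit, 345.4 and 369.0 CPM, 0.10. Subunits of the stalk were further apart. Atp5h, subunit d, had 418.3 and 543.8 CPM (0.38), and Atp5j, coupling factor 6, had 409.1 and 542.9 CPM (0.41). Atp5g1, Atp5g2 and Atp5g3 encode the same mature subunit of the rotating ring. Atp5g1 had 220.9 and 294.7 CPM (0.42), Atp5g2 297.9 and 402.3 CPM (0.43), and Atp5g3 239.3 and 262.6 CPM (0.13), so the ratio of Atp5g3 was the smallest of the 3.

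**Figure D2:**
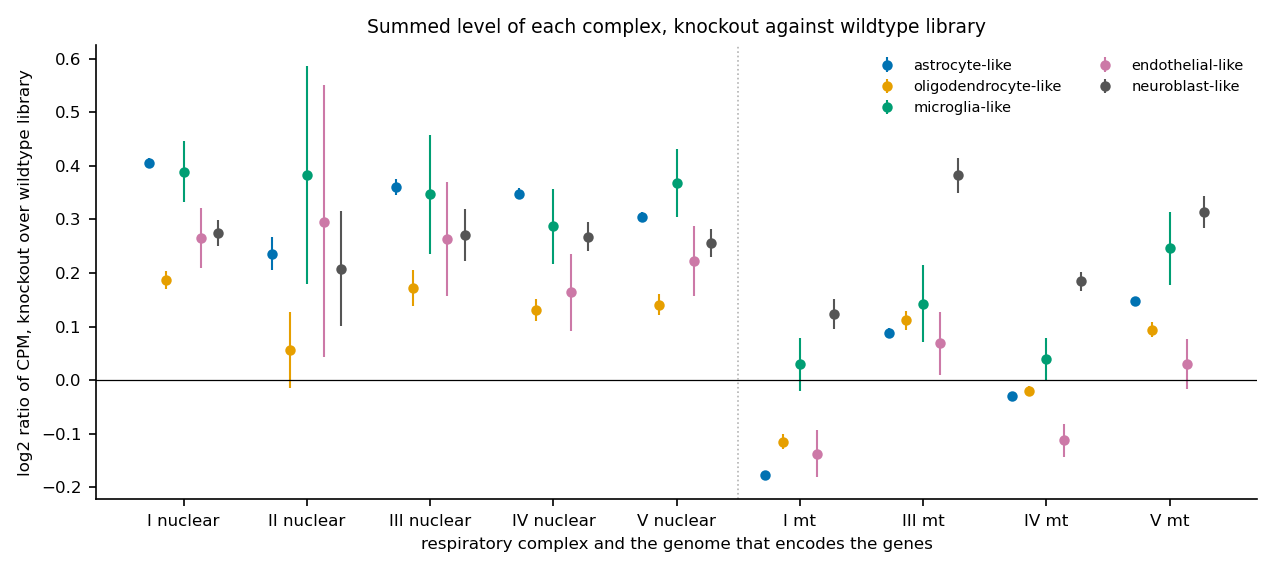
Log2 ratio of knockout over wildtype (y axis) of the summed nuclear subunits and of the summed mitochondrially encoded genes of each complex, for the 5 compared classes; error bars are exact 95% intervals of counting error. Nuclear subunits lie above 0 for all 5 complexes in every class, though the interval of complex II in oligodendrocyte-like cells includes 0, and in astrocyte-like cells mitochondrially encoded complex I genes lie at -0.18 beside nuclear complex I subunits at 0.41.

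Nuclear respiratory genes are known targets of the transcription factors NRF1, ETS-family factors such as GABPA, and YY1, whose binding words can be looked for in promoters. RefSeq promoters (GRCm38.p6, 250 bases before to 50 after the gene start) were found for 76 of the 95 nuclear genes. On either strand, the NRF1 word GCGCATGCG was in 11 of them (14.5%, against 1.95% of all 27025 gene promoters). The ETS word CCGGAAG was in 19 (25.0% against 9.93%), and the YY1 word AGATGGCG in 10 (13.2% against 2.27%). At least 1 of the 3 was in 33 promoters (43.4% against 13.2%). These words do not contain each other, and the NRF1 word can overlap its own reverse complement. The 3 stretches below show the 120 bases before the start of a complex V gene with ETS and YY1 words, a complex V gene with an NRF1 word, and Cycs with an NRF1 word. They are written 5′ to 3′ on the gene's strand with the words in capitals.
Atp5j, chr16:84834977-84835096, minus strand: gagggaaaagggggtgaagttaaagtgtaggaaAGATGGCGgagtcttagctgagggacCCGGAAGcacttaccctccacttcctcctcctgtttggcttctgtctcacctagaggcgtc
Atp5k, chr5:108434400-108434519, minus strand: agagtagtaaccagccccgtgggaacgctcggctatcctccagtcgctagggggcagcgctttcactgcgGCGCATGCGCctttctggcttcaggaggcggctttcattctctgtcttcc
Cycs, chr6:50566570-50566689, minus strand: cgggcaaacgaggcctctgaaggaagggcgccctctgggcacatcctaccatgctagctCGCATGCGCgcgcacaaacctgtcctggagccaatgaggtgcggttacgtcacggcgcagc
The astrocyte-like log2 ratios of knockout over wildtype had a median of 0.37 over the 33 tested genes with a word and 0.39 over the 42 without. Having a word in the window thus went with no larger ratio. The nuclear members also had short annotated transcripts. Each gene's length was taken as the median over all its annotated transcripts, which need not be the length of the RNA that was counted. The median over all 95 members was 608 bases, against 1424 bases for genes with at least 50 UMIs in astrocyte-like cells. With the median of 20 bins of this length removed from each gene, 34 nuclear subunits rather than 58 were past the upper limit in astrocyte-like cells.

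In oligodendrocyte-like cells the difference was smaller. Of 79 tested nuclear subunits, 76 were higher in the knockout library, but only 2 were past the upper limit and 0 past the lower, against 7.67% and 20.5% of all 10255 genes. The summed log2 ratio was 0.16 (0.15 to 0.17), beside a median over all genes of -0.07. The highest ratio was that of Ndufc2, with 225.1 CPM in wildtype and 292.8 CPM in knockout (0.38), followed by Ndufs3, a core subunit of complex I, at 0.33. Cox6a1 was lower in the knockout library, with 397.0 and 354.2 CPM, a log2 ratio of -0.16 (-0.24 to -0.09), as was Ndufs1, at -0.11. Ribosomal protein genes had a summed log2 ratio of 0.11, with 64 of 77 higher.

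Microglia-like cells, which had the lowest nuclear sum of the compared classes, had a summed log2 ratio of 0.36 (0.32 to 0.39). Of 78 tested nuclear subunits, 76 were higher, 51 past the upper limit, and 1 was past the lower limit, against 21.7% of all 7077 genes upward and 19.9% downward. Ndufb6, a membrane-arm subunit of complex I, had 38.7 CPM in wildtype and 65.7 CPM in knockout (0.76), and Atp5j had 145.4 and 237.3 CPM (0.71). The gene below the fold was Ndufs1, with 46.9 and 36.3 CPM, a log2 ratio of -0.37 whose interval (-0.93 to 0.18) includes 0. Hemoglobin was at 32770 CPM in wildtype and 7497 CPM in knockout microglia-like cells, and ribosomal protein genes were higher in the knockout library in 75 of 77 cases (0.28). The part of either in the result was not tested, and with both groups taken out of the total the nuclear log2 ratio kept its direction.

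In endothelial-like cells the summed log2 ratio was 0.23 (0.20 to 0.27). Of 78 tested nuclear subunits, 70 were higher and 8 lower, 21 past the upper limit and 0 past the lower, against 16.7% and 25.0% of all 5326 genes. The named genes at the high end were Ndufa12 (0.62), Ndufa1 (0.59) and Atp5h (0.55, from 362.3 to 531.8 CPM). At the low end, Ndufs4, at -0.31, Ndufb6, at -0.23, and Cox7c, at -0.23, had intervals that include 0. Hemoglobin was at 17370 CPM in wildtype and 35930 CPM in knockout in this class, and its part in the result was not tested.

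Neuroblast-like cells had a summed nuclear log2 ratio of 0.27 (0.25 to 0.28), with 77 of 78 tested subunits higher. Of these, 19 were past the upper limit and 0 past the lower, against 10.3% and 28.4% of all 9469 genes. Ndufs3 had 84.8 CPM in wildtype and 115.7 CPM in knockout (0.45). The assembly factor Ndufaf6 was lowest, at -0.39, and the only tested subunit below 0 was Uqcrc1, at -0.02. Under TMM scaling all 78 tested subunits were higher. The ratios of the 5 complexes lay close together, between 0.21 for complex II and 0.27 for complexes I, III and IV.

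Of the 78 nuclear subunits tested in all 5 classes, 66 had a higher CPM in the knockout library in all 5. Another 9 were higher in 4. Atp5g3 and Sdha were higher in 3 classes and Ndufs1 in 2. The cells of all classes come from the same 2 libraries, so the classes are not independent repeats of the comparison. The matching count over all genes was not made, so whether this agreement exceeds that of other genes is not known here. The ribosomal protein genes were higher in 73 of 77 cases in endothelial-like and 74 of 77 in neuroblast-like cells, with summed log2 ratios of 0.21 and 0.25.

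The 13 mitochondrially encoded genes did not move together. In astrocyte-like cells they summed to 48390 CPM in wildtype and 47810 CPM in knockout, a log2 ratio of -0.017 by CPM that became 0.14 by trimmed-mean (TMM) scaling. By CPM, 4 genes were higher and 9 lower in the knockout library, with 0 past the upper limit and 3 past the lower, which is no larger a share than the 27.7% of all genes past the lower limit. All 7 complex I genes were lower, with a summed log2 ratio of -0.18, although mt-Nd1 and mt-Nd4 crossed 0 under TMM scaling. The complex V genes were higher in sum (0.15), and so was mt-Cytb, the only mitochondrially encoded subunit of complex III (0.09).

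Of the 7 complex I genes, 6 lie on the mitochondrial strand that carries most genes, and mt-Nd6 is the only one of the 13 on the other strand. In astrocyte-like cells mt-Nd6 had 134.1 CPM in wildtype, from 3221 UMIs, and 56.1 CPM in knockout, from 2090 UMIs. This log2 ratio of -1.26 (-1.34 to -1.18) was the lowest of the 13. In oligodendrocyte-like cells mt-Nd6 had 87.9 and 51.2 CPM, a log2 ratio of -0.78 (-0.95 to -0.61). In microglia-like cells it had 57.1 CPM from 84 UMIs and 15.1 CPM from 20 UMIs, a log2 ratio of -1.92 (-2.70 to -1.20). Endothelial-like cells had 85.6 and 39.9 CPM from 64 and 35 UMIs (-1.10, interval -1.74 to -0.49), and neuroblast-like cells 41.7 and 22.5 CPM from 121 and 96 UMIs (-0.89, interval -1.29 to -0.49). The mt-Nd6 level was thus lower in the knockout library in all 5 classes, as it was in all 55 values under other settings. Those settings did not include single depth bands or clusters, which are given below.

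The mt-Nd6 gene (GENCODE M21, GRCm38, chrM:13552-14070, minus strand) shares its last 14 bases with the end of mt-Nd5 on the plus strand. It has 22.2% A in its RNA sequence and no run of A longer than 3, whereas the 12 plus-strand genes have 29.5% to 40.7% A with longest runs of 4 to 8. The ends of the annotated genes are shown with the shared bases in capitals, each 5′ to 3′ on the gene's own strand. Where the RNAs end and where the counted 3′ reads lie was not examined.
mt-Nd5, chrM:13522-13565, plus strand: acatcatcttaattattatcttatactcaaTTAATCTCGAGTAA
mt-Nd6, chrM:13552-13595, minus strand: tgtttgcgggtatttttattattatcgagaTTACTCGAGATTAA
For each 100 mt-Nd5 UMIs, astrocyte-like cells had 16.7 mt-Nd6 UMIs in wildtype and 10.0 in knockout, so mt-Nd6 was lower also beside its neighbour. This ratio was 18.2 and 13.9 in oligodendrocyte-like, 19.3 and 6.51 in microglia-like, 13.5 and 8.60 in endothelial-like, and 13.5 and 8.37 in neuroblast-like cells. The sources used here do not say whether reads in the shared bases were counted for either gene.

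mt-Nd5 itself, a proton-pumping subunit of complex I, had 802.8 CPM in wildtype and 558.5 CPM in knockout astrocyte-like cells (-0.52), and its log2 ratio ranged from -0.45 to -0.20 in the other classes. mt-Nd4l had 396.4 and 322.8 CPM (-0.30), and ranged from -0.49 to -0.27 in the others. mt-Nd3 had 302.3 and 253.1 CPM (-0.26), and it too was below 0 in all 5 classes by CPM, but above 0 in neuroblast-like cells under TMM scaling. The more abundant complex I genes differed less in astrocyte-like cells. mt-Nd1 had 2471 and 2307 CPM (-0.10), mt-Nd2 3575 and 3183 CPM (-0.17), and mt-Nd4 4747 and 4316 CPM (-0.14). By CPM these 3 were higher in the knockout library in 3, 2 and 2 of the 5 classes.

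The mitochondrially encoded subunits of complex IV, its catalytic core, parted from each other. mt-Co1 had 8031 CPM in wildtype and 7070 CPM in knockout astrocyte-like cells (-0.18), and was above 0 only in neuroblast-like cells (0.07). mt-Co2 had 4701 and 5136 CPM (0.13) and was higher in the knockout library in all 5 classes. mt-Co3 had 8362 and 8451 CPM (0.02) and was higher in 4. The sum of the 3 genes had a log2 ratio of -0.03 in astrocyte-like and -0.02 in oligodendrocyte-like cells by CPM, and both crossed 0 under TMM scaling.

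mt-Atp6 and mt-Atp8, the complex V subunits of the proton channel, are read from 1 transcript whose coding sequences overlap by 43 bases. The overlap is shown in capitals.
mt-Atp8, chrM:7897-7969, plus strand: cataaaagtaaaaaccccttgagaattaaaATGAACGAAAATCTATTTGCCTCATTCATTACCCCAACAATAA
mt-Atp6, chrM:7927-7999, plus strand: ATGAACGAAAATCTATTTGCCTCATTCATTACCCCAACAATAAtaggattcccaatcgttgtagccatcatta
mt-Atp6 had 7849 CPM in wildtype and 8719 CPM in knockout astrocyte-like cells (0.15), and mt-Atp8 had 72.4 and 53.9 CPM (-0.43), although both lie on the same RNA. For each 100 mt-Atp6 UMIs there were 0.922 mt-Atp8 UMIs in wildtype and 0.618 in knockout astrocyte-like cells. The ratio was 0.852 and 0.550 in oligodendrocyte-like, 0.838 and 0.588 in microglia-like, and 0.717 and 0.415 in neuroblast-like cells, but 0.696 and 0.691 in endothelial-like cells. The intervals of the mt-Atp8 level ratio in microglia-like and endothelial-like cells include 0. mt-Nd4l and mt-Nd4 share 1 transcript as well, with an overlap of 7 bases. mt-Nd4l UMIs for each 100 mt-Nd4 UMIs went from 8.35 to 7.48 in astrocyte-like and from 9.62 to 6.90 in microglia-like cells, and were lower in the knockout library in all 5 classes. In both pairs the upstream gene had the lower ratio in the 5 compared classes, though barely so for mt-Atp8 in endothelial-like cells. Of the classes described only, neutrophil-like, monocyte-like, T cell-like and B cell-like cells also had fewer mt-Atp8 UMIs per mt-Atp6 UMI in knockout. Pericyte-like cells went from 0.354 to 0.607 for each 100, from 3 and 11 mt-Atp8 UMIs, and fibroblast-like cells from 0.793 to 0.802.

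The mitochondrial genes summed higher in the knockout library in neuroblast-like cells, with a log2 ratio of 0.22 (0.21 to 0.24), and in microglia-like cells. mt-Cytb had the highest ratio there, 0.38, followed by mt-Atp6 at 0.32 and mt-Co2 at 0.27. In microglia-like cells the log2 ratio of the sum was 0.08 (0.05 to 0.11), and in endothelial-like cells it was -0.07 (-0.09 to -0.05).

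**Figure D3:**
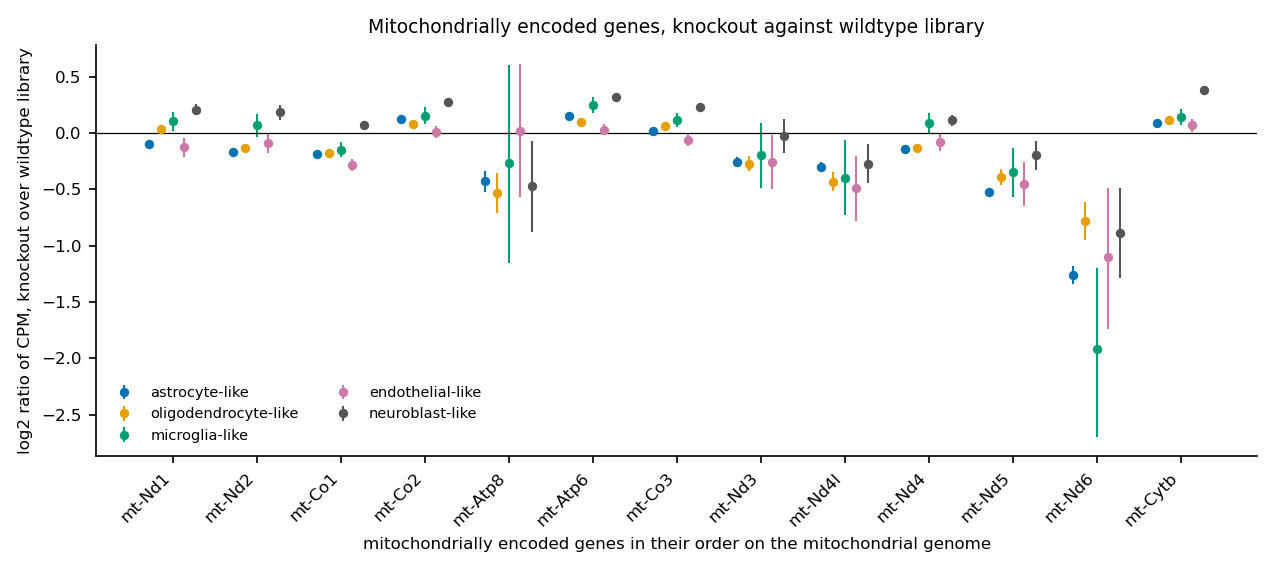
Log2 ratio of knockout over wildtype CPM (y axis) of each of the 13 mitochondrially encoded genes, in their order along mitochondrial DNA (x axis), for the 5 compared classes; error bars are exact 95% intervals of counting error. mt-Nd6 lies lowest in all 5 classes, from -0.78 in oligodendrocyte-like to -1.92 in microglia-like cells, while mt-Co2, mt-Atp6 and mt-Cytb lie above 0 in all 5.

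Several subunits exist as alternative genes, and some of these were restricted to a class. Over both libraries, Ndufa4l2, a paralog of Ndufa4 known to be induced by low oxygen, had 1948 CPM in pericyte-like cells (490 UMIs), where Ndufa4 had 67.6 CPM (17 UMIs). In the other classes Ndufa4l2 had at most 8.61 CPM, in endothelial-like cells, and Ndufa4 had from 79.6 CPM in neutrophil-like to 673.2 CPM in fibroblast-like cells. Pericyte-like cells thus had the paralog in place of Ndufa4, as counted by UMIs. By library, Ndufa4l2 had 1363 CPM in wildtype and 2267 CPM in knockout pericyte-like cells, from 121 and 369 UMIs, and Ndufa4 had 78.9 and 61.4 CPM, from 7 and 10 UMIs.

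Cox4i2, the isoform of Cox4i1 that is known to act in oxygen sensing, showed the same restriction but did not stand in place of its partner. In pericyte-like cells Cox4i2 had 982.0 CPM (247 UMIs) and Cox4i1 719.6 CPM (181 UMIs). Cox4i2 had 529.6 CPM in wildtype and 1229 CPM in knockout pericyte-like cells. It had 6.75 CPM in astrocyte-like and 6.76 CPM in endothelial-like cells, at most 0.279 CPM in neuroblast-like and oligodendrocyte-like cells, and 0 UMIs in the remaining classes other than pericyte-like. The 6 pericyte markers had 34440 CPM in wildtype and 38530 CPM in knockout pericyte-like cells. They had 104.6 and 92.8 CPM in astrocyte-like cells and 659.1 and 301.8 CPM in endothelial-like cells, where 2 of the 6 were at 0 in wildtype and 0 in knockout. The Cox4i2 level of endothelial-like cells came from 10 wildtype UMIs and 1 knockout UMI, and the pericyte markers were also higher in wildtype there. Astrocyte-like cells went the other way. Their Cox4i2 level came from 114 wildtype and 300 knockout UMIs, or 0.80 and 1.005 for each 100 Cox4i1 UMIs, while their pericyte markers were lower in knockout. The part of these markers in the Cox4i2 UMIs of both classes was not tested.

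Isoforms known from testis or muscle were scarce. Cox6b2, the testis isoform of Cox6b1, had 79.8 CPM in fibroblast-like cells (63.3 in wildtype and 89.0 in knockout), 39.8 CPM in pericyte-like and 19.1 CPM in astrocyte-like cells. The fibroblast-like cells also held markers of other classes, and the part of those in the Cox6b2 level was not tested. Cox6a2, the muscle isoform of Cox6a1, had 15.8 CPM in monocyte-like cells, from 0 wildtype and 22 knockout UMIs. A count of 0 there allows up to 6.90 CPM. Cox7a1, the muscle isoform of Cox7a2, had 11.0 CPM in astrocyte-like cells, and Cox8b 3 wildtype and 19 knockout UMIs. Cox8c had no UMI in any described class, which is a limit of this depth and not a statement that it is absent.

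**Figure D4:**
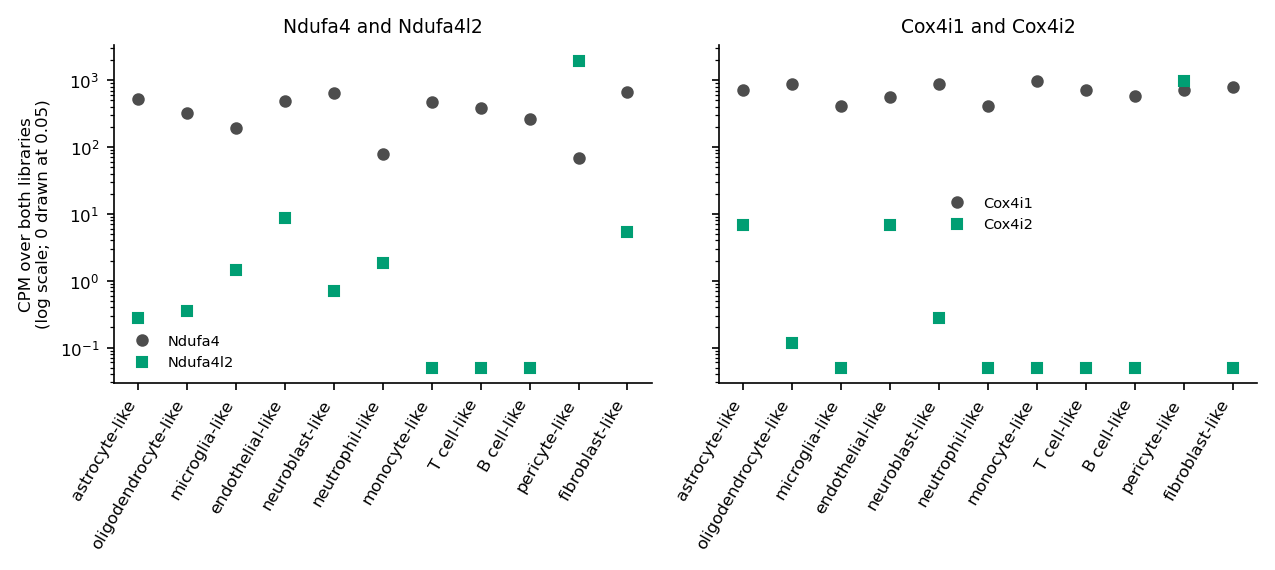
Levels over both libraries (CPM, log axis) of Ndufa4 and Ndufa4l2 (left) and Cox4i1 and Cox4i2 (right) by class (x axis), 1 point per gene and class with no error bar; genes with 0 UMIs are drawn at the bottom of the axis. Ndufa4l2 (1948 CPM) and Cox4i2 (982.0 CPM) stand high in pericyte-like cells only, where Ndufa4 is at its lowest level, 67.6 CPM.

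Genes that build or feed the chain, but are outside the symbol rule, were taken from 11 lists of 97 genes. Of all genes tested in astrocyte-like cells, 5273 of 13405 had a higher CPM in knockout, and their median log2 ratio was -0.11; the lists are set beside that. In astrocyte-like cells 6 of 6 nucleotide and metabolite carriers were higher in the knockout library (median log2 ratio 0.23), as were 7 of 8 mitochondrial mass markers (median 0.24), led by the import receptor Tomm22 at 0.45. Of the 16 complex IV assembly genes 13 were higher (median 0.23), with Coa3 at 0.55 and the copper chaperone Sco1 at -0.39. For complex II assembly 3 of 4 genes were higher (median 0.34), for complex III assembly 4 of 6 (0.08), for complex V assembly 1 of 3 (-0.01), and for complex I assembly outside the rule 4 of 7 (0.05). Citric acid cycle genes were split, 6 of 13 higher (median -0.03), as were coenzyme Q synthesis genes, 8 of 13 (0.08), and the genes that express mitochondrial DNA, 7 of 14 (-0.02). Lrpprc, which stabilises mitochondrial mRNAs, was at -0.65 and the ribosomal RNA methyltransferase Tfb1m at 0.42. Of the 7 regulators of mitochondrial biogenesis 1 was higher (median -0.31): Gabpa was at -0.52 and Esrra at 0.08. Of the 7, 3 were past the lower limit, as were 27.7% of all genes.

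In microglia-like cells, where 3663 of all 7077 tested genes were higher in the knockout library, 6 of 6 carriers (median 0.33), 8 of 8 mass markers (0.40) and 9 of 10 tested complex IV assembly genes (0.45) were higher, and 2 of 4 tested regulators (0.03). In neuroblast-like cells 6 of 6 carriers (0.20), 8 of 8 mass markers (0.30) and 2 of 5 tested regulators (-0.04) were higher, beside 3744 of 9469 genes. Oligodendrocyte-like cells had 6 of 6 carriers (0.12), 7 of 8 mass markers (0.09) and 0 of 5 tested regulators (-0.39) higher, beside 4119 of 10255 genes. The counts in endothelial-like cells were less one-sided, with 4 of 6 carriers (0.22), 4 of 8 mass markers (0.08) and 1 of 3 tested regulators (-0.43), beside 2394 of 5326 genes.

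The difference in nuclear subunits varied with the depth of the cells, in bands set after seeing the data. In astrocyte-like cells the log2 ratio of the nuclear sum was -0.44 below 4000 UMIs (668 wildtype and 809 knockout cells), 1.20 from 4000 to 8000 (292 and 931), 0.45 from 8000 to 16000 (937 and 2293) and 0.24 above (479 and 210). The mitochondrial sum ran the other way, at 0.42, -0.58, -0.12 and -0.01. In the 4000 to 8000 band the wildtype cells had 9731 CPM of nuclear subunits and 87160 CPM of mitochondrial genes, and the knockout cells 22350 and 58210 CPM. Oligodendrocyte-like cells had a like pattern, with nuclear log2 ratios of -0.48, 1.20, 0.14 and 0.15. Neuroblast-like cells were also below 0 in the band under 4000 UMIs, at -0.31 (-0.40 to -0.23), followed by 0.54, 0.41 and 0.28. Microglia-like cells did not turn, with nuclear ratios of 0.28, 0.33 and 0.45 in the 3 bands that could be filled. The mt-Nd6 ratio was below 0 in all 4 bands of astrocyte-like cells, at -0.77, -2.17, -1.11 and -1.09. It was above 0 only in the band below 4000 UMIs, in oligodendrocyte-like (0.02, interval -0.77 to 0.78) and neuroblast-like cells (0.44, interval -0.96 to 1.99).

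**Figure D5:**
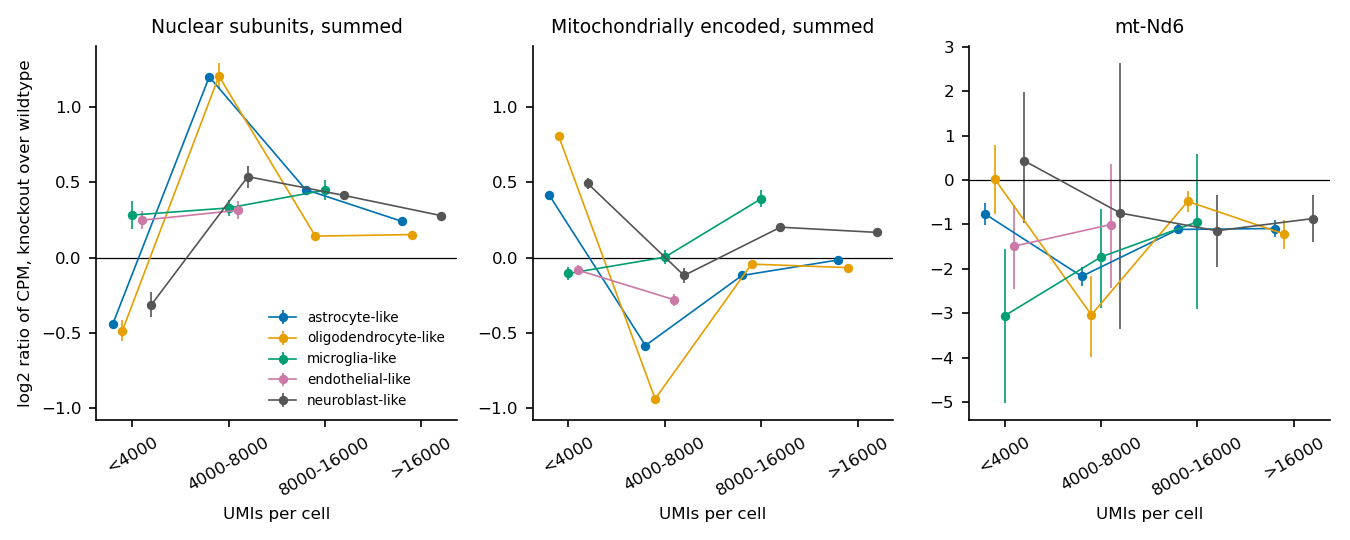
Log2 ratio of knockout over wildtype (y axis) of the nuclear sum, the mitochondrial sum and mt-Nd6 in bands of UMIs per cell (x axis), by class; error bars are exact 95% intervals of counting error. In astrocyte-like cells the nuclear ratio goes from -0.44 below 4000 UMIs to 1.20 in the next band and the mitochondrial ratio from 0.42 to -0.58, while mt-Nd6 stays below 0 in all 4.

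Within single clusters of astrocyte-like cells the nuclear ratio was below the 0.36 of the whole class. In astrocyte-like cluster 0 the nuclear sum was 26780 CPM in wildtype and 30210 CPM in knockout, a log2 ratio of 0.17, and in cluster 1 it was 21050 and 23710 CPM, 0.17. Cluster 3 had few nuclear and many mitochondrial UMIs: its nuclear sum was 6493 and 6261 CPM (-0.05) and its mitochondrial sum 90870 and 103100 CPM. Cluster 4, with a median of 1285 and 2059 UMIs a cell, had the highest nuclear sum, 32750 and 40080 CPM (0.29). Hemoglobin in cluster 4 was at 57760 CPM in wildtype and 5240 CPM in knockout, a log2 ratio of -3.46, against a log2 ratio of -0.85 in cluster 0 and -0.47 in cluster 1, and its part in the result was not tested. The ribosomal protein genes had log2 ratios of 0.09 in cluster 0, 0.14 in cluster 1, 0.16 in cluster 3 and -0.18 in cluster 4. Their part in the result was not tested either. The mt-Nd6 ratio was below 0 in all 6 astrocyte-like clusters, from -1.85 to -0.48, and the interval of cluster 4 (-0.98 to 0.01) includes 0. Oligodendrocyte-like cluster 10, with 103 and 34 cells, ran against its class, with a nuclear ratio of -0.62, a mitochondrial ratio of 1.16 and an mt-Nd6 ratio of 1.69 whose interval (-0.18 to 3.69) includes 0. The mt-Nd6 ratio was also above 0 in neuroblast-like cluster 19, at 0.70 (-1.09 to 2.83). In other classes the nuclear ratio of single clusters could exceed that of the class: it was 0.39 in microglia-like cluster 8, 0.36 and 0.34 in neuroblast-like clusters 12 and 19, 0.28 in endothelial-like cluster 7 and 0.17 in oligodendrocyte-like cluster 2.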

How the data were processed

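The deposited files are tables of UMI counts per gene and cell, 1 per library. Per the submitters' processing notes, Cell Ranger 4.0.0, Seurat 3.0, R 4.0.3 and genome mm10 were used; other counting options are not given in the sources used here. Counts of cells passing the filters and the marker gate were summed by class and library and divided by the class's total UMIs (CPM). Ratios have exact conditional binomial intervals at a confidence level of 95%. Genes needed 50 UMIs over both libraries to be tested, and were called when at least 25% higher or 20% lower in the knockout library. With 1 library a genotype no p-value was computed. PCR of 13 or 12 cycles was used, without saying which library had which.

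The members and the lists were chosen with earlier results of these data known. The genes named are all mt- genes, the 5 highest and 5 lowest ratios per class among nuclear genes with 100 UMIs, the 3 most abundant of each complex, genes at 8 times the median class, and isoform pairs; of the highest and lowest, some are given, and 1 item is not reported here. The complex II subunits, Uqcrfs1, Uqcrc1, Cycs, Ndufv1, Atp5a1, Atp5h, Atp5j and the assembly factors in astrocyte-like cells, and the genes named from the pathway lists, were added for their roles or after their values were seen. Doublets were treated by leaving out cells with 3 markers of 2 or more classes. Scrublet's own threshold marked 0 wildtype and 164 knockout cells, so it was not used; removing its 295 and 549 highest scores was an alternative. Clusters (Leiden, resolution 1, 30 components, 2000 variable genes) left the members out. Scanpy 1.11.5, scipy 1.17.1 and edgeR 4.0.16 (TMM factors only) were used, and the ratios and intervals were tested on simulated data. Settings tried were the cell filters, gate, depth, doublets, cluster mix, cell weights, scaling, length, added CPM and the minimum count. All per-sample columns were used.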

Additional observations from a re-analysis of the deposited data

Results flagged for a closer look

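Mitochondrially encoded genes had opposite directions in different cell classes under the same contrast of knockout over wildtype, with both intervals of counting error clear of 0. None of these differences was tested, since each genotype has 1 library. The sum of the 13 genes had a log2 ratio of 0.22 in neuroblast-like and -0.07 in endothelial-like cells, 0.29 apart. mt-Nd1 was at 0.21 in neuroblast-like and -0.13 in endothelial-like cells, 0.33 apart. mt-Co1 was at 0.07 and -0.28 in the same classes, 0.35 apart, and mt-Co3 at 0.23 and -0.06, 0.29 apart. mt-Nd2 was at 0.18 in neuroblast-like and -0.17 in astrocyte-like cells, 0.35 apart, and mt-Nd4 at 0.12 and -0.14, 0.25 apart. These directions depend on the settings. Under TMM scaling the astrocyte-like value of mt-Nd4 crossed 0, and the endothelial-like values moved to -0.0070 for mt-Co3, -0.014 for the sum and -0.073 for mt-Nd1. With each cell weighed the same, the endothelial-like sum was 0.11.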

How the results depend on the processing

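No paired analysis was possible because each genotype has 1 library. The summed nuclear log2 ratio stayed above 0 in all 60 values under other settings, and mt-Nd6 stayed below 0 in all 55. The mitochondrial sum kept its sign in 42 of 55. These values do not include the single depth bands and clusters given above, some of which had the opposite sign for the nuclear sum or mt-Nd6. Values beyond counting error follow, where not named otherwise for cells as in the report, and their causes were not tested.
With no limit on the mitochondrial share the nuclear sum was 0.37 in astrocyte-like cells, and the mitochondrial sum was -0.073 in astrocyte-like, -0.044 in endothelial-like, 0.11 in microglia-like, 0.20 in neuroblast-like and 0.015 in oligodendrocyte-like cells. With a limit of 10% the mitochondrial sum was 0.012, -0.038, 0.034, 0.17 and 0.0064 in that order, and reversed in astrocyte-like cells. With at least 1000 genes per cell the nuclear sum was 0.37 in astrocyte-like, 0.30 in endothelial-like, 0.29 in neuroblast-like and 0.17 in oligodendrocyte-like cells. The mitochondrial sum was then -0.037, -0.17, 0.16 and -0.017 in these, and it reversed to -0.026 in microglia-like cells.
With a gate of 4 markers the nuclear sum was 0.37 in astrocyte-like and 0.32 in microglia-like cells, and the mitochondrial sum -0.025 in astrocyte-like, -0.14 in endothelial-like, 0.050 in microglia-like and 0.16 in neuroblast-like cells. In cells of 4000 to 16000 UMIs the nuclear sum was 0.50 in astrocyte-like and 0.41 in neuroblast-like cells, and the mitochondrial sum -0.18, -0.18, 0.051, 0.17 and -0.082 in astrocyte-like, endothelial-like, microglia-like, neuroblast-like and oligodendrocyte-like cells. In cells of at least 4000 UMIs, a setting chosen after seeing the data, the nuclear sum was 0.39, 0.19, 0.28 and 0.17 and the mitochondrial sum -0.064, -0.27, 0.19 and -0.021 in the same classes without microglia-like cells. With the highest Scrublet scores removed the mitochondrial sum of astrocyte-like cells was -0.00028.
TMM scaling gave nuclear sums of 0.51, 0.28, 0.40 and 0.25 and mitochondrial sums of 0.14 (reversed), -0.014, 0.36 and 0.091 in astrocyte-like, endothelial-like, neuroblast-like and oligodendrocyte-like cells. It shifts every gene by 0.15, 0.05, 0.13 and 0.09 in these classes. With each cell weighed the same the nuclear sum was 0.26, 0.14, 0.27, 0.15 and 0.035 and the mitochondrial sum 0.056 (reversed), 0.11 (reversed), 0.12, 0.43 and 0.086 in astrocyte-like, endothelial-like, microglia-like, neuroblast-like and oligodendrocyte-like cells. With the same mix of clusters the nuclear sum was 0.17 in astrocyte-like and 0.28 in endothelial-like cells, and the mitochondrial sum 0.076 (reversed) in astrocyte-like, 0.11 in microglia-like and 0.023 in oligodendrocyte-like cells. Without ribosomal protein and hemoglobin genes in the total the nuclear sum was 0.28 in endothelial-like and 0.29 in neuroblast-like cells, and the mitochondrial sum -0.018 and 0.25.
Nuclear subunits at least 25% higher numbered 34 to 76 in astrocyte-like (58 in the report), 19 to 53 in microglia-like (51), 12 to 36 in endothelial-like (21), 11 to 61 in neuroblast-like (19) and 1 to 17 in oligodendrocyte-like cells (2). The lowest count came from removing the length trend in all but oligodendrocyte-like cells, and the highest from TMM scaling in astrocyte-like, endothelial-like and oligodendrocyte-like cells. Of all genes at least 25% higher or 20% lower, 32.3% were higher by CPM and 62.1% by TMM in astrocyte-like, 27.2% and 50.8% in oligodendrocyte-like, and 26.7% and 55% in neuroblast-like cells. The mt-Nd6 values rest on few UMIs: microglia-like cells had 84 and 20, with values from -2.25 to -1.46, and neuroblast-like cells 121 and 96, with values from -1.19 to -0.34.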

Other observations

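Neutrophil-like cells, with 39 wildtype and 73 knockout cells, had the widest gap in mitochondrially encoded genes of the described classes: 42960 CPM in wildtype and 21790 CPM in knockout, a log2 ratio of -0.98 (interval -1.02 to -0.93). The median mitochondrial share of a cell was 4.14% and 0.424%. The 6 neutrophil markers summed to 97220 CPM in wildtype and 189300 CPM in knockout cells of this gate, so the cells also differed in their own markers. Hemoglobin was at 96950 CPM in wildtype and 2407 CPM in knockout cells of this gate, and the 6 erythroid markers at 139.3 and 2.73 CPM, with 4 and 5 of them at 0. The part of these in the gap was not tested.

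Cells over the limit of 20% mitochondrial UMIs had fewer nuclear subunits among their other UMIs. They were left out of every comparison except the setting with no limit on the mitochondrial share. In wildtype astrocyte-like cells the nuclear subunits made 21550 UMIs per 1000000 non-mitochondrial UMIs below the limit and 7447 above it, and in knockout cells 27580 and 9888. In oligodendrocyte-like cells they made 18220 and 6000 in wildtype and 20310 and 9762 in knockout. The share of mt-Nd6 among mitochondrial UMIs of astrocyte-like cells was 0.277% in wildtype and 0.117% in knockout below the limit, and 0.240% and 0.108% above it. The lower mt-Nd6 share of the knockout library was thus present also in cells over the limit. These cells come from the same 2 libraries, so they are not an independent repeat of the comparison.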
